A study of Mus musculus with 19 samples.

Results

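The genes described here encode secreted ligands of the transforming growth factor beta (TGF-beta) superfamily and 2 inhibitors that bind them. Inhba and Inhbb encode the beta subunits of activins, Fst and Fstl3 the activin-binding follistatins, Tgfb1, Tgfb2 and Tgfb3 the TGF-beta ligands, and Bmp2, Bmp4 and Bmp7 bone morphogenetic proteins (BMPs). They were chosen by name and are 10 of the 24689 gene symbols in a table of TPM (transcript abundance scaled to the same total in each mouse) from mouse tongue epithelium. All 10 passed the filter for testing, at least 0.1 TPM in at least 3 mice.

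Polyadenylated RNA came from the tongue epithelium of 19 mice, each mouse being 1 replicate, 15 days after the transgenes were induced. The 5 E mice carried Krt14-CreERT, LSL-rtTA and tetON_E6-E7, which makes the papillomavirus oncoproteins E6 and E7. The 3 Y mice carried tetON_YAP1S127A, an active form of the transcriptional co-activator YAP1, in place of tetON_E6-E7, and the 6 EY mice carried both. Of the 5 N mice, which stand for normal epithelium, mice 1, 2 and 3 had Krt14-CreERT and LSL-rtTA only. N mouse 4 had LSL-rtTA without Cre, and N mouse 5 had Krt14-CreERT and both effector transgenes without LSL-rtTA. The lines also carry a tetON_H2B-GFP reporter. The mice were 8 to 16 weeks old, and induction was by 3 doses of tamoxifen into the tongue with a doxycycline diet. Cre was driven by the keratin 14 promoter, which is active in basal epithelial cells, whereas the values are from the whole tissue. The effector transgenes' own RNA was not analysed here. The medians of mouse Yap1 were 7.88 TPM (N), 9.08 (E), 9.45 (Y) and 9.07 (EY), and so the gene does not track the Y and EY labels. Ccn1, a YAP target picked for this check after its values were seen, was at 80.8 to 128 TPM among N mice and 44.3 to 150 among E mice, against 325 to 354 for Y and 252 to 509 for EY. The TPM values resolve into 8269674 to 11007304 whole reads per mouse.

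Activins and TGF-betas bind pairs of type I and type II receptors and signal through Smad2 and Smad3, while BMPs signal through Smad1, Smad5 and Smad9 and switch on the Id genes. Follistatins trap activins outside the cell and block their receptor contacts, and follistatin itself also binds some BMPs. In stratified epithelium TGF-beta is known as a brake on keratinocyte growth, activin A for its induction in wounds, and BMPs for a part in differentiation.

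In EY epithelium the activin subunit Inhba and both follistatins were higher than in N, and Bmp2 was lower, though of these 4 calls Fst alone held in every setting tried. A gene is called here when limma's Benjamini-Hochberg adjusted p over all 22745 genes tested is below 0.01 and the log2 difference of (TPM + 0.1) is above 1 in size. By that rule 3 of the 10 genes were called higher in EY than in N, where 12.6% of all genes tested were, and 1 of 10 was called lower, where 5.71% were. The median log2 difference of the 10 genes was 0.48, and that of all genes was 0.33. The other 6 genes (Inhbb, Tgfb1, Tgfb2, Tgfb3, Bmp4 and Bmp7) were not called in any comparison. Statements below that groups did not overlap are descriptive only. The share of all genes that separate in the same way is not given.

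**Figure D1:**
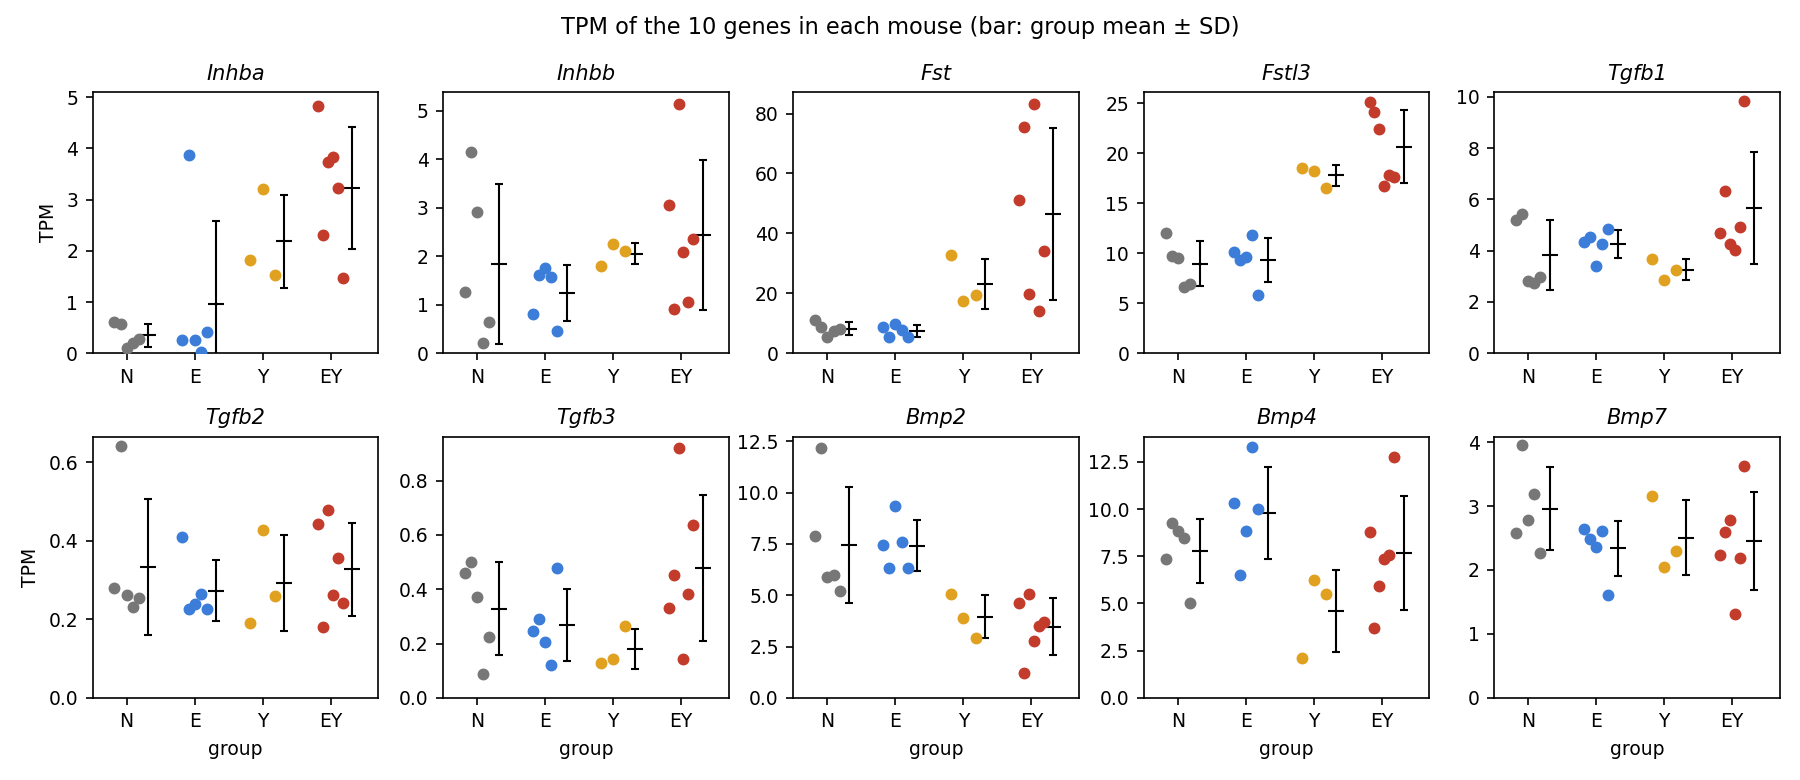
TPM (vertical axis, linear from 0, a scale per gene) of each of the 10 genes in every mouse, by group. Points are mice and bars are group means ± SD, with n = 5, 5, 3 and 6, and the bar of Inhba in E is cut off at 0. The Y and EY points of Inhba, Fst and Fstl3 lie above all N points, and those of Bmp2 lie below them.

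Inhba, whose product pairs with itself as activin A, was at 0.605, 0.563, 0.0971, 0.199 and 0.281 TPM in N mice 1 to 5. In E mice 1 to 5 it was at 0.249, 3.87, 0.267, 0.0338 and 0.412 TPM. The Y mice had 1.82, 3.21 and 1.52 TPM, and the EY mice ran from 1.47 to 4.83 TPM with a median of 3.48. Neither the Y nor the EY mice overlapped N, while E mouse 2 stood among the EY mice. E mouse 4 was below all N mice, and E mice 1, 3 and 5 lay within the N range. These levels rest on few reads, 3 to 21 in N and 1 to 118 in E, and 46 to 100 in Y mice and 49 to 143 in EY mice. Inhba rose in EY against N by a log2 difference of 2.96 (SE 0.63, adjusted p = 0.00101), and all 6 EY mice were above every N mouse. In Y against N the difference was 2.44 (SE 0.76) with an adjusted p of 0.0369, which is not called, although without E mouse 2 in the shared estimate of spread it reached 0.00375. In E against N it was 0.35 (SE 0.66, adjusted p = 0.884), and without E mouse 2 it was -0.39.

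Inhbb, the other activin beta subunit, ranged from 0.218 to 4.15 TPM in N and 0.907 to 5.14 in EY, and from 0.462 to 1.75 in E and 1.81 to 2.25 in Y. N and EY overlapped every other group, while the Y mice lay above all E mice. Summed over both subunits, the medians were 1.87 TPM (N), 1.61 (E), 3.64 (Y) and 5.11 (EY).

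Fst, the gene of follistatin, was at 11.2, 8.71, 5.28, 7.46 and 8.08 TPM in N mice 1 to 5 and at 8.88, 5.54, 9.70, 7.73 and 5.55 TPM in E mice 1 to 5. It was at 32.8, 17.5 and 19.3 TPM in the Y mice, and from 14.2 to 83.3 TPM with a median of 42.6 in the EY mice. Every Y and EY mouse was above every N and E mouse. The EY mice spread most, with mouse 5 below all Y mice at 14.2 TPM, mouse 3 among the Y mice at 19.7, and mice 2 and 4 highest at 75.4 and 83.3. Fst rose in EY against N by 2.25 (SE 0.39, adjusted p = 0.000148), in all 6 EY mice. The Y against N difference of 1.48 (SE 0.47) had an adjusted p of 0.0398 and was not called, and in that comparison all 3 Y mice were above every N mouse.

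Fstl3, which encodes the follistatin-like 3 protein, was at 12.02, 9.73, 9.55, 6.61 and 6.94 TPM in N mice 1 to 5. The E mice had 10.1, 9.31, 9.60, 11.9 and 5.85 TPM, the Y mice 18.6, 18.3 and 16.6 TPM, and the EY mice ran from 16.8 to 25.2 TPM with a median of 20.1. N and E shared a range, and all Y and EY mice were above it. Fstl3 rose by 1.21 in EY against N (SE 0.18, adjusted p = 3.46e-05) and by 1.01 in Y against N (SE 0.22, adjusted p = 0.00417), in all 6 EY and all 3 Y mice. The EY call was lost, by the fold limit, after median-of-ratios scaling (0.84) or quantile normalization, and with only N mice 1 to 3 (0.97). Fstl3 was the 1 gene of the 10 called higher in Y than in N, where 3.47% of all genes tested were. None of the 10 was called lower there, where 1.11% were, with 5 of the 10 at an unadjusted p below 0.05, and no gene of the 10 was called in Y against N by limma voom on the recovered reads. The Fstl3 call in Y is fragile: it was lost without any single Y mouse, or without N mouse 4 or 5, at adjusted p values from 0.00152 to 0.0191 over all left-out mice. Of 12 other settings 7 ended it, and its log2 difference was 0.82 after median-of-ratios scaling.

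**Figure D2:**
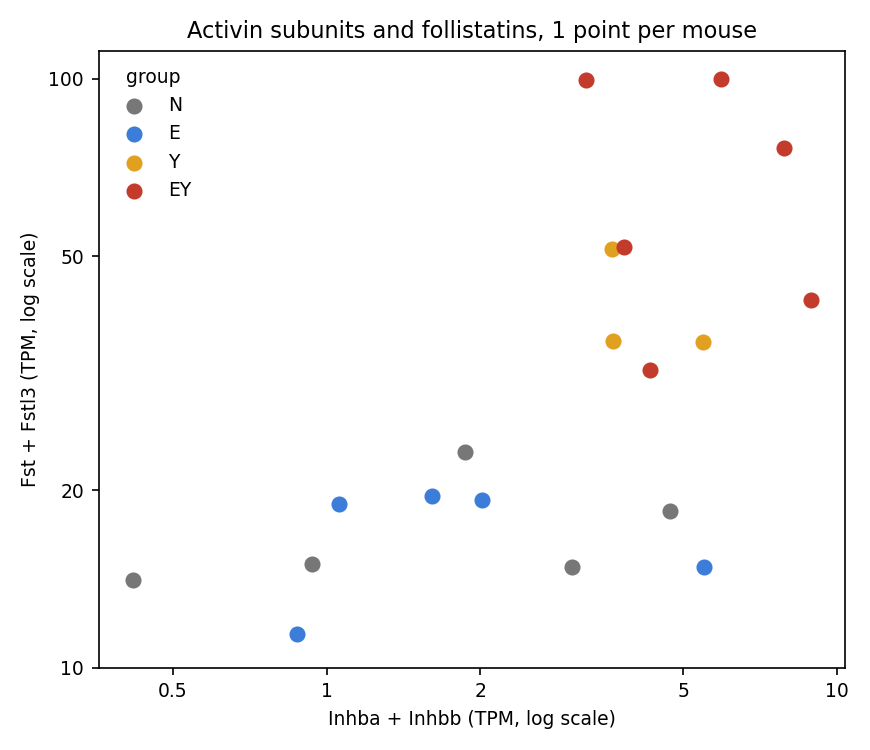
Summed TPM of Inhba and Inhbb (horizontal) against summed TPM of Fst and Fstl3 (vertical), both on log scales, 1 point per mouse colored by group. All Y and EY points lie at 32.0 TPM of follistatins or more and all N and E points at 23.2 or less.

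Activin subunit and follistatin transcripts can be set side by side in each mouse. The follistatins summed to 14.1 to 23.2 TPM in N and 11.4 to 19.6 in E mice, and to 35.8 to 51.4 in Y and 32.0 to 100.1 in EY mice. Per mouse, their TPM divided by that of the activin subunits had medians of 12.5 (N), 12.2 (E), 9.87 (Y) and 11.6 (EY), and the ranges overlapped, from 3.92 to 33.8 in N and from 4.75 to 30.8 in EY. Transcript ratios say nothing of protein bound. Annotated genes on the opposite strand share exon positions with Fst (Gm47040) and Fstl3 (Prss57), and whether counting used strand is not given in the sources used here, so reads of each pair may not be separable. Gm47040 averaged 1.59 TPM in N and 9.84 in EY, and Prss57 2.85 and 7.20. Tgfb2, Tgfb3 and Bmp4 have such neighbors too.

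Promoter sequences are shown for Inhba and Fstl3, which were both called higher in EY, because they let a reader see how unlike their upstream regions are. RefSeq promoters (build GRCm38.p6) were found for 6 of the 10 genes, also for Inhbb, Tgfb1, Tgfb2 and Bmp4. Each line gives the 250 bases before the annotated start, 5′ to 3′ on the gene's strand, from chr13:16011601-16011850 (+) for Inhba and chr10:79777024-79777273 (+) for Fstl3, with motif matches in capitals.
Inhba: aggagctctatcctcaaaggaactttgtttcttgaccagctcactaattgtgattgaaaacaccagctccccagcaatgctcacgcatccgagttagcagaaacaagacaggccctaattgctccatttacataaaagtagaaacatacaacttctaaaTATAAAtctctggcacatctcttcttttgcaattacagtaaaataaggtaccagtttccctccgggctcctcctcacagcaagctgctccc
Fstl3: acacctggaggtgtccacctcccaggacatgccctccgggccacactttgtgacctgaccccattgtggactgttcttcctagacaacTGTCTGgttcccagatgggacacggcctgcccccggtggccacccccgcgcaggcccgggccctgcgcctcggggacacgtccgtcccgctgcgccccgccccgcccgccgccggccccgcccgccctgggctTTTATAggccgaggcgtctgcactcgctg
The motifs searched on both strands were GGAATG for TEAD factors, CAGACA for SMAD factors and TATAAA for the TATA box. For AP-1 the motif was TGA and TCA with 1 base of any kind between them, and no matches overlapped. Inhba has 1 TATAAA match, whose first base lies 91 bases before the start. Fstl3 has 1 SMAD match and 1 TATAAA match, beginning 162 and 29 bases before the start, both as the reverse complement. Among 32851 promoter windows of the same length, 12.6% hold the TEAD letters, 6.75% the AP-1 letters, 17.1% the SMAD letters and 12.4% the TATAAA letters. Inhba is 43.2% G or C and Fstl3 71.2%, against a median of 52.4% over all windows. A match describes letters only, and their use in this tissue was not tested.

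Tgfb1, the most abundant of the TGF-beta ligand genes in every group, was at 2.72 to 5.41 TPM in N and 4.01 to 9.82 in EY, with E at 3.39 to 4.86 and Y at 2.85 to 3.67. The EY mice overlapped N and E, lay above all 3 Y mice, and had their highest value in mouse 6. Against N the EY difference was 0.55 (SE 0.23, adjusted p = 0.0667), and against Y it was 0.72 (SE 0.27, adjusted p = 0.112). Tgfb1 made up a median of 86.2% of the TPM summed over the 3 ligand genes in N and 88.9% in EY. Tgfb2 stayed between 0.181 and 0.641 TPM and Tgfb3 between 0.0882 and 0.920 TPM over all 19 mice, and their groups overlapped. Tgfb3 had 4 to 30 reads per mouse.

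Bmp2, a BMP ligand that signals through Bmpr1a and Bmpr2, was at 7.86, 12.2, 5.90, 6.01 and 5.22 TPM in N mice 1 to 5. In E mice 1 to 5 it was at 7.46, 6.34, 9.35, 7.60 and 6.31 TPM. The Y mice had 5.04, 3.91 and 2.92 TPM, and the EY mice ran from 1.20 to 5.04 TPM with a median of 3.60. All Y and EY mice were below all N and E mice, by a narrow margin between Y mouse 1 or EY mouse 3 and N mouse 5. In EY against N Bmp2 fell by 1.13 (SE 0.30, adjusted p = 0.00549), lower in all 6 EY mice than in any N mouse. The Y against N difference was -0.86 (SE 0.36, adjusted p = 0.125). The EY call was lost without N mouse 1, N mouse 2, EY mouse 2 or EY mouse 4, with adjusted p values from 0.00304 to 0.0193 over all left-out mice. It was also lost with a pseudocount of 1 TPM (-0.93), with only the groups compared (adjusted p = 0.0252) and with mouse number as a block (adjusted p = 0.016).

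Bmp4 had 5.04 to 9.26 TPM in N and 3.68 to 12.7 in EY, with E at 6.52 to 13.3 and Y at 2.12 to 6.22, and Bmp7 had 1.31 to 3.95 TPM over all mice. The groups overlapped, except that all Y mice were below all E mice for Bmp4. For Bmp4 the Y against N difference was -0.85 (SE 0.37, adjusted p = 0.131). Bmp2 made up a median of 41.7% of the TPM summed over Bmp2, Bmp4 and Bmp7 (N), 36.5% (E), 32.1% (Y) and 25.3% (EY).

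By mean TPM, which is scaled for transcript length, the order in N was Fstl3, Fst, Bmp4, Bmp2, Tgfb1, Bmp7, Inhbb, Inhba, Tgfb2 and Tgfb3. The first 4 averaged 8.97, 8.15, 7.79 and 7.44 TPM and did not differ beyond their SDs of 2.23, 2.14, 1.697 and 2.83 (n = 5). The order in EY was Fst, Fstl3, Bmp4, Tgfb1, Bmp2, Inhba, Bmp7, Inhbb, Tgfb3 and Tgfb2. There Fst averaged 46.3 TPM (SD 28.7, n = 6) and Fstl3 20.7 (SD 3.68), and the next, Bmp4, averaged 7.67 (SD 3.04). Bmp2 stood at 3.47 TPM (SD 1.38) beside Inhba at 3.24 (SD 1.19), which overlap within their spread.

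**Figure D3:**
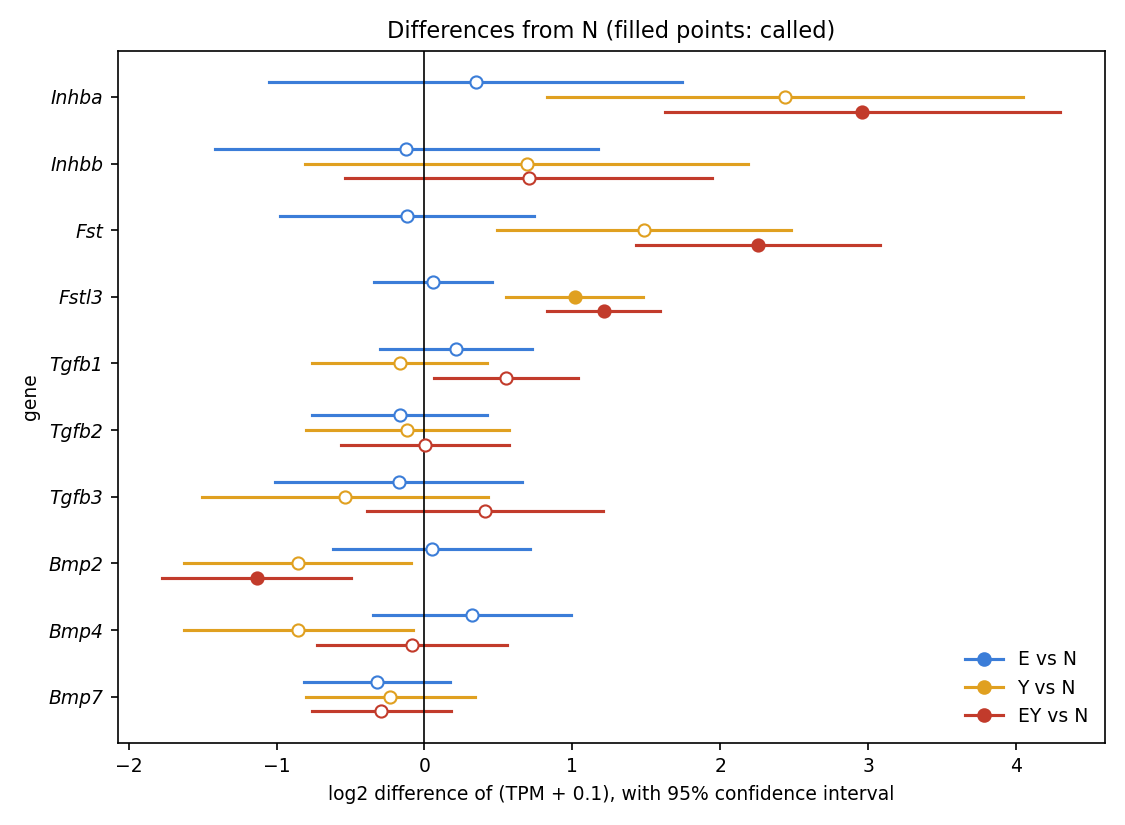
Log2 differences of (TPM + 0.1) from N for the 10 genes, with 95% confidence intervals, for E (blue), Y (yellow) and EY (red). Filled points are called, and the N mice are shared by the 3 comparisons. The E intervals all include 0, while those of Y and EY for Inhba, Fst and Fstl3 lie above 0.

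E against N, the comparison of E6 and E7 alone, called none of the 10 genes by limma, where 1.2% of all genes tested were called in either direction. No gene of the 10 had an unadjusted p below 0.05 there, and limma voom on the recovered reads also called 0. EY against E, which adds the YAP1S127A transgene on the E6 and E7 background, called 3 of the 10 higher, where 7.82% of all genes were, and 1 lower, where 4.99% were. The differences were 2.61 (SE 0.63) for Inhba, 2.37 (SE 0.39) for Fst, 1.15 (SE 0.18) for Fstl3 and -1.18 (SE 0.30) for Bmp2. The Inhba call was lost without E mouse 1, 3 or 4, the Fstl3 call without E mouse 5, and the Bmp2 call without E mouse 1, 3 or 4 or EY mouse 2 or 4. With only the groups compared the calls of Inhba and Bmp2 were lost, and that of Bmp2 also with a pseudocount of 1 TPM or mouse number as a block. After median-of-ratios scaling or quantile normalization, 2 of the 10 rather than 3 were called higher in EY than in E, and 1 was called lower. EY against Y called none of the 10 by limma, where 2.0% of all genes were called in either direction, with 3 of 10 at an unadjusted p below 0.05 and 0 called by voom. Its differences were 0.52 (SE 0.74) for Inhba, 0.77 (SE 0.46) for Fst, 0.20 (SE 0.21) for Fstl3 and -0.28 (SE 0.35) for Bmp2. The interaction, which asks whether the EY difference departs from what E and Y add up to, called none of the 10, where 0.176% of all genes were called, with 0 at an unadjusted p below 0.05 and 0 by voom. Its estimates were 0.18 (SE 0.99) for Inhba, 0.89 (SE 0.61) for Fst, 0.14 (SE 0.28) for Fstl3 and -0.33 (SE 0.47) for Bmp2, with adjusted p values of 0.960, 0.558, 0.872 and 0.808, which does not show that the effects add.

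The median difference of all genes between EY and N was 0.33 on the TPM scale and 0.01 after median-of-ratios scaling of the TPM, and the all-gene calls moved from 2858 higher and 1299 lower to 1540 higher and 1972 lower. In Y against N they moved from 790 higher and 252 lower to 524 and 392, in EY against E from 1779 and 1135 to 1000 and 1572, and in EY against Y from 243 and 211 to 123 and 283. Relative to that shift Inhba was higher in EY by 2.64, Fst by 1.88 and Fstl3 by 0.84, and Bmp2 differed by -1.50. Inhba, Fst and Bmp2 stayed called on that scale, and Fstl3 fell under the fold limit. With only the 3 N mice that carry both Krt14-CreERT and LSL-rtTA, 2 of the 10 were called in EY against N, namely Fst (2.24) and Bmp2 (-1.36). The Inhba difference was then 2.79 at an adjusted p of 0.0113, and that of Fstl3 was 0.97.

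**Figure D4:**
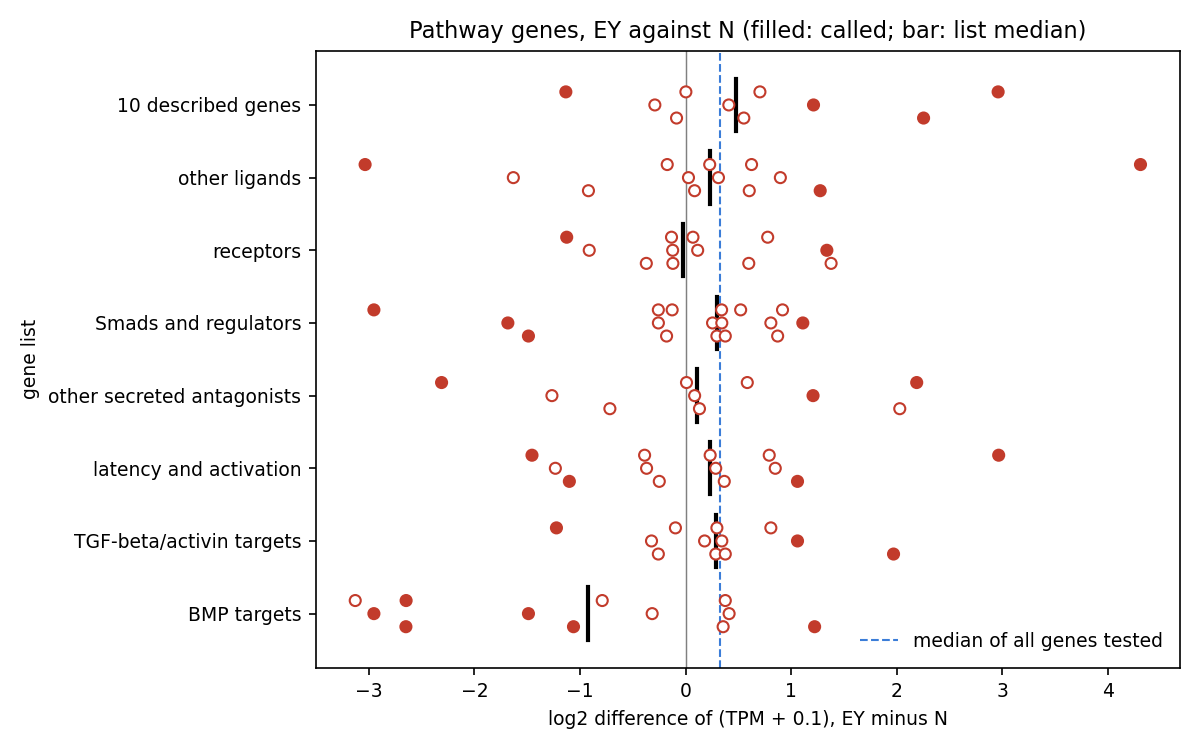
Log2 difference of (TPM + 0.1), EY minus N, for every tested gene of 8 lists. Filled points are called, black bars are list medians, and the dashed line is the median of all genes tested, 0.33. The BMP targets have the lowest list median, -0.93, and some genes stand in more than 1 list.

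Among 25 further ligand genes of the superfamily, 17 were in the table and 13 were tested. Of the 13, 2 were called higher and 1 lower in EY against N, beside 12.6% and 5.71% of all genes tested. The list median was 0.23. Gdf15, a stress-induced ligand of the GDNF-family receptor Gfral, rose by 4.31 (adjusted p = 0.000254) from a median of 0 TPM in N to 5.00 in EY. It had 0 to 8 reads per mouse in N and 12 to 34 in EY, so the size of the difference depends on the pseudocount, at 2.15 with 1 TPM and 6.35 with 0.01 TPM. Bmp8b rose by 1.28, and Lefty1, which encodes an inhibitor of Nodal signaling, fell by 3.04 from a mean of 8.86 TPM in N to 1.49 in EY. Inha, whose product forms inhibins with the activin beta subunits, was the most abundant of the list by the mean over all mice (6.94 TPM), though below Lefty1 in N and in Y, and was not called.

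Among 15 receptor genes, 12 were tested. In EY against N 1 was called higher and 1 lower, beside 12.6% and 5.71% of all genes tested, with a list median of -0.03. Tgfbr2, the TGF-beta type II receptor, rose by 1.34 (SE 0.27, adjusted p = 0.000648), with every EY mouse above every N mouse, from a mean of 1.87 TPM in N to 4.59 in EY. Tgfbr3, the co-receptor betaglycan, fell by 1.13 in EY and by 1.34 in Y. Acvr1b, the activin type I receptor and by the mean over all mice the most abundant of the list, had 10.1 to 12.6 TPM in N and 4.67 to 7.82 in EY, where Bmpr1a and Bmpr2 averaged more (9.07 and 7.34 TPM against 5.97). Its difference of -0.91 (adjusted p = 6.33e-06) missed the fold limit, and after median-of-ratios scaling it was -1.29 and called.

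Among 17 Smads and their regulators, 1 was called higher and 3 lower in EY against N, beside 12.6% and 5.71% of all genes. The list median was 0.30. Bambi, a BMP-induced pseudoreceptor that blocks TGF-beta, activin and BMP receptors, was at 29.8 to 72.5 TPM in N mice and 37.3 to 54.4 in E mice, against 12.2 to 20.1 for Y and 4.57 to 7.37 for EY. E overlapped N, while Y lay below both and EY below Y. It fell by 2.95 in EY against N (adjusted p = 5.74e-09), by 1.39 in Y against N (adjusted p = 0.000817), and by 1.56 in EY against Y (adjusted p = 0.000758). Smad6, an inhibitory Smad of the BMP branch, fell by 1.49, and Smad9, a BMP Smad, by 1.68 to a mean of 0.0308 TPM in EY, with at most 5 reads in any EY mouse. Smurf1, a ubiquitin ligase for BMP Smads, rose by 1.11. Smad4, the shared partner Smad, differed by 0.92 and was not called.

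Of 15 other secreted antagonists 10 were tested, with a list median of 0.11 in EY against N. There 2 were called higher and 1 lower, beside 12.6% and 5.71% of all genes tested. Sostdc1, which encodes an inhibitor of BMP and Wnt signaling, fell by 2.31 in EY and by 1.55 in Y, with means of 33.7 TPM (N), 29.3 (E), 11.2 (Y) and 6.68 (EY). Nbl1, a BMP antagonist of the DAN family, rose in EY by 1.21, to a mean of 24.3 TPM. Twsg1, the most abundant of the list by the mean over all mice (32.4 TPM) but below Sostdc1 in N, was not called.

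Of 14 genes of TGF-beta latency and activation 13 were tested, with a list median of 0.23 in EY against N. There 2 were called higher and 2 lower, beside 12.6% and 5.71% of all genes tested. Thbs1, whose product thrombospondin can activate latent TGF-beta, was at 1.35 to 5.15 TPM in N mice and 0.539 to 3.08 in E mice, against 6.12 to 17.8 for Y and 12.1 to 27.8 for EY. All Y and EY mice were above all N and E mice. Thbs1 rose in EY by 2.97 (adjusted p = 4.15e-05), while its Y difference of 1.96 had an adjusted p of 0.0199. Itgb6, the beta chain of an integrin that activates TGF-beta, rose by 1.06. Ltbp4, a latent TGF-beta binding protein, fell by 1.46 in EY and by 1.27 in Y, and Pcsk6, a proprotein convertase, fell by 1.10 in EY.

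The lists of target genes are given beside the shares of all genes called, and no difference between lists was tested. Whether a listed gene, such as Ccn2, changed through these ligands or through YAP1S127A itself was not tested. Of 12 genes known to respond to TGF-beta or activin, 2 were called higher (Ccn2 by 1.97 and Itgb6 by 1.06) and 1 lower (Cdkn2b by 1.22) in EY against N, with a list median of 0.29 beside 0.33 for all genes. Of all genes tested 12.6% were called higher and 5.71% lower there. Junb, the most abundant of them, and Smad7, Skil and Pmepa1 were not called. Of 12 genes known to respond to BMPs, 5 were called lower and 1 higher in EY against N, with a list median of -0.93. In Y against N 3 were called lower and 0 higher, with a median of -0.72 beside 0.13 for all genes, of which 1.11% were called lower and 3.47% higher, and in E against N 0 were called, with a median of 0.05 beside 0.07.

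The genes called lower in EY were Bambi and Smad6, described above, with Id2, Id4 and Msx2. Id4, an inhibitor of basic helix-loop-helix factors, was at 27.2, 72.3, 37.2, 30.1 and 26.2 TPM in N mice 1 to 5, 8.27, 15.9 and 10.9 TPM in the Y mice, and 3.76 to 9.37 TPM in EY. It fell by 2.65 in EY (adjusted p = 2.19e-06) and by 1.65 in Y (adjusted p = 0.0054). Msx2, a homeobox gene, fell by 2.65 in EY, from means of 12.4 TPM in N and 13.0 in E to 1.69, and Id2 fell by 1.06 in EY and 1.10 in Y. Id1, the most abundant of the list at a mean of 574 TPM over all mice, differed by -0.32 in EY and was not called, nor was Id3 at -0.79. Gata2, the gene called higher, had 0 reads in all 5 N mice and 0 to 8 reads in the EY mice, too few for a fold.

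**Figure D5:**
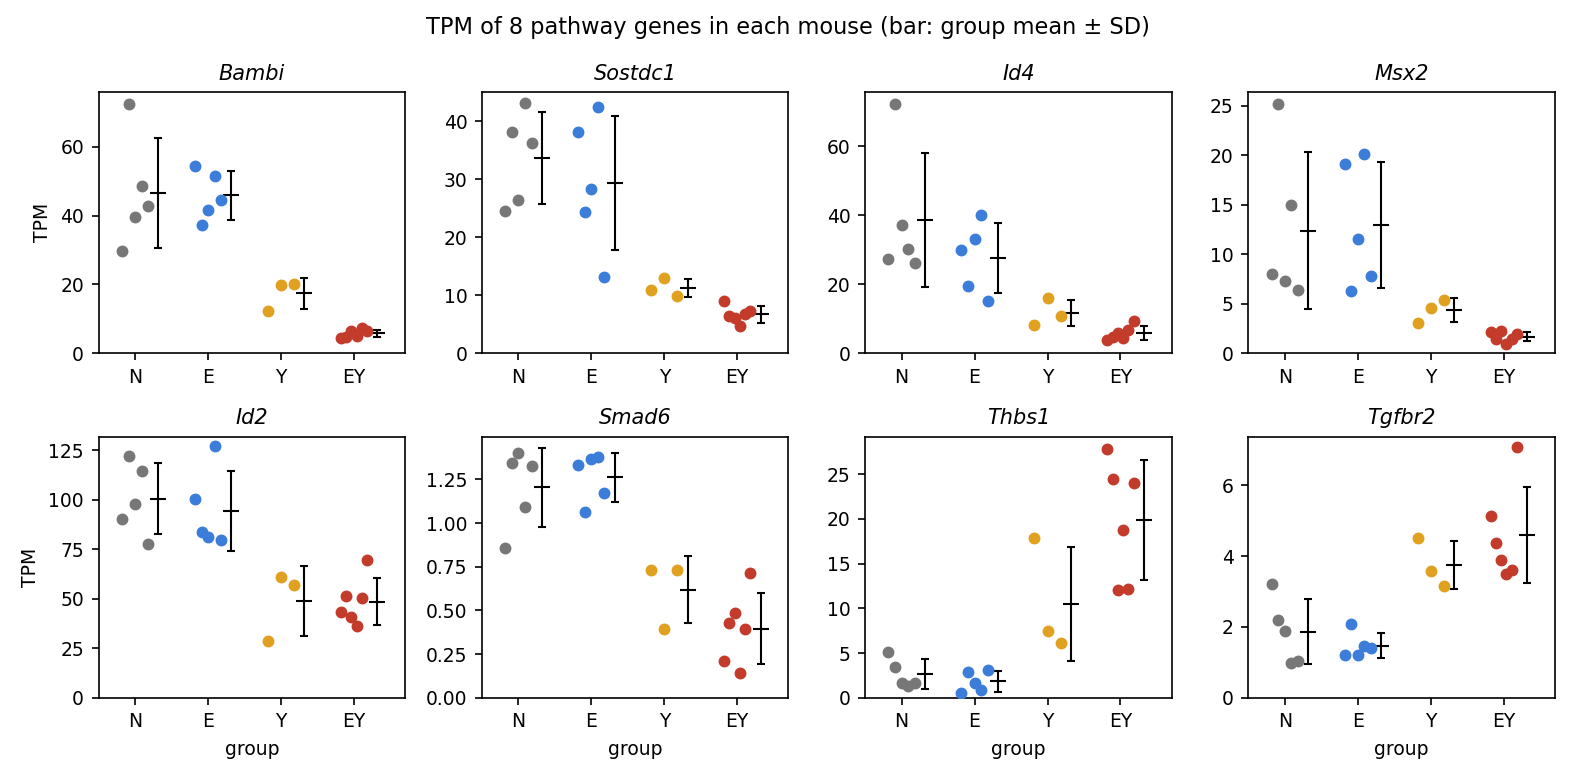
TPM (vertical axis, linear from 0, a scale per gene) of 8 pathway genes in every mouse, with group means ± SD and n = 5, 5, 3 and 6. For Bambi, Sostdc1, Id4, Msx2, Id2 and Smad6 every Y and EY point lies below every N point, and for Thbs1 every Y and EY point lies above.

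Several of these calls depend on the scaling. After median-of-ratios scaling, the EY against N differences of Bmp8b (0.91), Tgfbr2 (0.98), Smurf1 (0.74), Nbl1 (0.83), Itgb6 (0.73) and Ccn2 (1.60), and of Gata2, were no longer called, while every gene named above as called lower in EY stayed called and Id3 (-1.17) was called too. With the 3 N mice that carry Krt14-CreERT and LSL-rtTA, Tgfbr2 (0.88), Smurf1 (0.93), Nbl1 (0.75), Itgb6 (1.02), Ccn2 (1.03) and Gata2 were not called in EY, while Acvr1b (-1.01) was, nor were Id2, Id4 and Sostdc1 in Y. With a pseudocount of 1 TPM the EY calls of Bmp8b, Gata2, Itgb6, Pcsk6, Smad6, Smad9, Smurf1, Tgfbr2 and Tgfbr3 and the Y call of Tgfbr3 were lost, and voom did not call Smurf1. With only the groups compared Ccn2 and Gata2 in EY and Bambi, Id2, Id4, Ltbp4 and Tgfbr3 in Y were lost. With mouse number as a block Gata2 in EY and Id2 and Tgfbr3 in Y were lost. Single mice ended the EY calls of Ccn2 (N mouse 1, 4 or 5, EY mouse 1, 3, 4 or 5), Gata2 (15 of the 19 mice), Itgb6 (N mouse 1, EY mouse 1 or 4), Id2 (N mouse 2 or EY mouse 4) and Pcsk6 (N mouse 2). In Y against N, the calls of Id2, Id4, Ltbp4 and Tgfbr3 were lost without Y mouse 1, those 4 and Sostdc1 without Y mouse 3, and Tgfbr3 also without Y mouse 2. Id2 was lost there without N mouse 2, 3 or 4, and Id4 without N mouse 3.

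Likeness was described by the Pearson r of log2(TPM + 0.1) over the 19 mice, among 15604 genes with a mean of at least 1 TPM, for the 8 members that reached a mean of 1 TPM in any group. Nearest to Inhba were Prl2c3 (r 0.908), Tnfrsf23 (0.907) and S100a8 (0.907), with r of 0.714, 0.724 and 0.779 once group means were taken out. Nearest to Inhbb were Dyrk2 (0.867), Gm26616 (0.831) and Unc13d (0.823), with 0.889, 0.805 and 0.807 without group means. Nearest to Fst were Cpsf3 (0.954), Nop16 (0.952) and Atp5b (0.946), with 0.831, 0.844 and 0.792 without group means. For Fstl3 they were Pip4k2b (0.965), 2810004N23Rik (0.951) and 1600012H06Rik (0.944), and without group means 0.823, 0.778 and 0.812. For Tgfb1 they were Esyt1 (0.873), Gmip (0.854) and Ino80 (0.825), and without group means 0.842, 0.782 and 0.748. For Bmp2 they were Gm10558 (0.892), Ttll7 (0.890) and Zfp974 (0.886), and without group means 0.813, 0.742 and 0.746. Bmp4 ran most like Aff1 (0.808), Bicral (0.776) and Pgm2l1 (0.763), at 0.707, 0.651 and 0.651 without group means. Bmp7 ran most like Notch1 (0.833), 5031439G07Rik (0.830) and Gm22192 (0.815), at 0.871, 0.817 and 0.823 without group means. Prl2c3 has near-identical neighbors in its family, so its reads may not be its own.

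In bulk RNA, fewer cells of a type and less RNA per cell cannot be told apart. The marker counts below stand beside 12.6% of all genes tested called higher and 5.71% lower in EY against N. Of 9 epithelial marker genes all were above 0 in every mouse, and their sums ran from 71236 to 138758 TPM in N and from 44160 to 60868 in EY. In EY against N Krt14, Cdh1 and Epcam were called higher and Krt13, the most abundant, and Krt4 lower. Of 9 fibroblast markers 0 were called higher and Dcn was called lower, with sums of 73.3 to 316 TPM in N and 32.6 to 170 in EY. Dcn was the most abundant of them by the mean over all mice, and in EY Col3a1 (27.7 TPM) and Col1a1 (19.8) averaged more than Dcn (13.8). Of 9 muscle markers, Acta1 the most abundant, 0 were called, and the sums ran from 11.6 to 250 TPM in N and from 36.3 to 1313 in EY. Of 6 endothelial markers tested Egfl7, the most abundant, and Tie1 were called higher, with sums of 0.661 to 2.79 TPM in N and 3.41 to 9.50 in EY. Of 9 myeloid markers 0 were called, and the sums ran from 105 to 823 TPM in N and from 216 to 442 in EY. Lyz2 was the most abundant of them by the mean over all mice, while in Y Cd14 (51.1 TPM) and Cd68 (35.8) averaged more than Lyz2 (20.4). Of 7 lymphoid markers tested Trbc2, the most abundant, and Cd3d were called higher and 1 was called lower, with sums of 1.66 to 14.5 TPM in N and 23.2 to 52.9 in EY. Of 5 nerve markers tested, Mbp the most abundant by the mean over all mice but not in N, 0 were called, with sums of 3.30 to 18.4 TPM in N and 3.90 to 12.1 in EY. The part of these cells in the differences above was not tested.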

How the data were processed

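The deposited table gives TPM per gene symbol for 19 mice, each summing to 1000000. STAR 2.7.9 (reference GRCm39), SAMtools 1.7 and HTSeq 0.13.5 gave the counts of paired-end reads; how counts became TPM is not stated, and the authors' own tests used DESeq2 1.34.0. Testing used limma 3.58.1 (R 4.3.3) on log2(TPM + 0.1) for genes reaching 0.1 TPM in 3 or more mice, with a trend, 1 mean per group (5 mice in N, 5 in E, 3 in Y, 6 in EY) and Benjamini-Hochberg adjustment. Whole reads were recovered from the TPM for 24680 of 24680 genes above 0, to within 0.0001, giving 8269674 to 11007304 reads per mouse, so that 1 read is the smallest step and genes with few reads have wide relative error. Recovery and calls were checked on simulated data. Tables and figures used Python 3.11.15 with numpy 2.4.6, pandas 2.3.3 and matplotlib 3.10.9.

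Alternatives were pseudocounts of 1 and 0.01 TPM, a filter of 1 TPM and none, quantile normalization, scaling by median of ratios, the 3 N mice with both alleles alone, only the groups compared, mouse number as a block, limma voom on recovered reads, an adjusted p limit of 0.05, no fold limit, and leaving out each mouse. The alternatives, members and lists were chosen with earlier results of these data known. All members are named; genes of the lists are named where called, most abundant in their list, or the known receptor, Smad or target of a member. The 3 genes most like each member are named, except for Tgfb2 and Tgfb3, whose likeness was not described. Promoters are RefSeq windows of 250 bases; no promoter was found for Fst, Tgfb3, Bmp2 and Bmp7, and proteins were not examined. All 19 mice were used.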

Additional observations from a re-analysis of the deposited data

Results flagged for a closer look

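Among 30 sets of mice examined (each of the 10 genes in N, E and EY), 3 had a mouse far from the others of its group by the gap to its nearest neighbor relative to the whole range (Dixon's test at 95%), computed on log2(TPM + 0.1). Chance alone marks about 1 in 20 such sets. Tgfb2 was at 0.641 TPM in N mouse 2, above the other N mice. Tgfb2 was at 0.408 TPM in E mouse 1, above the other E mice. Bmp7 was at 1.60 TPM in E mouse 5, below the other E mice. On plain TPM 4 sets had such a mouse, these 3 and Inhba in E mouse 2, at 3.87 TPM with a gap of 0.901 of the range. Neither Tgfb2 nor Bmp7 was called in any comparison, and the cause of these values was not tested.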

How the results depend on the processing

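Of 1975 values from 64 results under the alternatives, 1824 kept their direction and their side of the threshold, 125 lost the call, 19 gained it and 7 changed sign. Of the 9 called differences of the 10 genes, 2 (Fst in EY against N and against E) held in every fit, 4 held without any single mouse and 0 changed sign. The genes called in EY against N went to 7248 with no fold limit. In Y against N they went to 656 with only the 3 N mice carrying Krt14-CreERT and LSL-rtTA, 555 with only the groups compared, 1599 at an adjusted p below 0.05 and 1935 with no fold limit. In E against N they went to 145 with only the groups compared and 414 at 0.05, in EY against Y to 198, 865 and, with no fold limit, 803, and in EY against E to 5746 with no fold limit. The interaction went to 118 by voom and 148 at 0.05. Of the 10 genes, 2 were called in EY against N with the 3 N mice and 2 in EY against E with only the groups compared. In Y against N 0 were called with a pseudocount of 1 TPM, either scaling, the 3 N mice, only the groups compared, mouse number as a block, or voom, and 3 at 0.05. The Inhba interaction was -0.076 after quantile normalization. Leaving out 1 mouse at a time gave 3779 to 4212 genes in EY against N (3 to 4 of the 10), 639 to 1039 in Y against N (0 to 2), 221 to 328 in E against N, 200 to 496 in EY against Y, 2575 to 3026 in EY against E (2 to 4) and 28 to 73 for the interaction. It gave -0.39 to 0.83 for Inhba in E against N, -0.31 to 0.92 for its interaction and -0.018 to 0.24 for the Fstl3 interaction. Mice of the same number in different groups were hardly alike (24 pairs, median r 0.0119, from -0.04 to 0.08, 0 above 0.1), and with mouse number as a block 3989 genes were called in EY against N and 861 in Y against N. A filter of 1 TPM left 5 of the 64 results untested, because fewer genes pass. Fewer mice and looser or stricter limits change the counts by construction, and otherwise the cause was not tested. Depth limits genes with few reads, such as Inhba in N with 3 to 21 reads.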
